A study of Mus musculus with 23 samples.

Results

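Explants of mouse testis that had been cultured for 16 days (D16) were compared with explants cultured for 4 days (D4). The comparison uses 5 of the 22 different libraries of the series, 3 of D4 and 2 of D16, chosen by their labels and not by any measured value. All mice were wild-type CD-1, an outbred stock, and the explants were cut from testes of 6.5 days postpartum (dpp) that had not been frozen. They were kept in α-MEM with KnockOut serum replacement, gentamicin and retinol, the precursor of retinoic acid. By the labels, D4 corresponds to 10.5 dpp and D16 to 22.5 dpp in the animal, so testes taken directly from mice of those ages (3 libraries each) served as the reference for the same interval in vivo. RNA was poly(A)-selected and sequenced from whole tissue, so germ cells and somatic cells were measured together, and fewer cells of a type and less RNA per cell cannot be told apart. The explants of a replicate were pooled, and the necrotic centre of each cultured explant was cut away before RNA was extracted, so the values describe the tissue that was kept.

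Spermatogenesis runs in waves. Spermatogonia divide by mitosis and, in response to retinoic acid, enter meiosis. Spermatocytes then pair and recombine their chromosomes during a long prophase, whose pachytene stage switches on a large set of testis-specific genes, and haploid round spermatids reshape into sperm with an acrosome, a flagellum and condensed chromatin. Sertoli cells nurse the germ cells inside the tubule, peritubular myoid cells surround it, and Leydig cells, vessels, stroma and macrophages lie between the tubules. Because the first wave is synchronous, the age of a young testis fixes which germ cells it can hold.

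The total count per library ranged from 41704439 to 69029328 at D4 and was 39778426 and 45760541 at D16. The D4 libraries resembled each other closely (Spearman's rho across genes of 0.994 to 0.997, a description over genes that are not independent). The D16 libraries were less alike, with a rho of 0.962. D16 replicate 2 lay nearer to the D4 libraries (0.948 to 0.950) than D16 replicate 1 did (0.875 to 0.879). A further library stood apart from its label: the one labelled 6.5 dpp fresh replicate 1 had a rho of 0.984 with D16 replicate 1 and of at most 0.889 with D4. It was left out of the fit, since all groups share the estimate of the spread there. With it kept, 13 genes were past the study's threshold higher at D16 and 0 lower by edgeR's test, while 680 and 171 had an adjusted p under 0.05.

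Between D4 and D16 the explants gained RNAs of genes used in spermatocytes and in spermatids, and collagen and other matrix RNAs went down. By the study's threshold (a log2 fold change of at least 2 in size and an adjusted p of at most 0.001 in edgeR's quasi-likelihood test), 1465 of 19255 genes were higher at D16, or 7.61%. Only 49 genes, or 0.254%, were lower, so that 96.8% of the genes past the threshold were higher. At an adjusted p under 0.05, which is the meaning of "rose" and "fell" from here on, 3542 genes rose (18.4%) and 1056 fell (5.48%), and the median log2 fold change of all genes was 0.03. The counts of every gene list below stand beside these shares of 18.4% and 5.48%. In 324 of the 1465 no D4 library had more than 3 counts, which is the floor below which no fold change is given here, and among the 1141 others 786 differed by over 10-fold and 208 by over 100-fold.

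**Figure D1:**
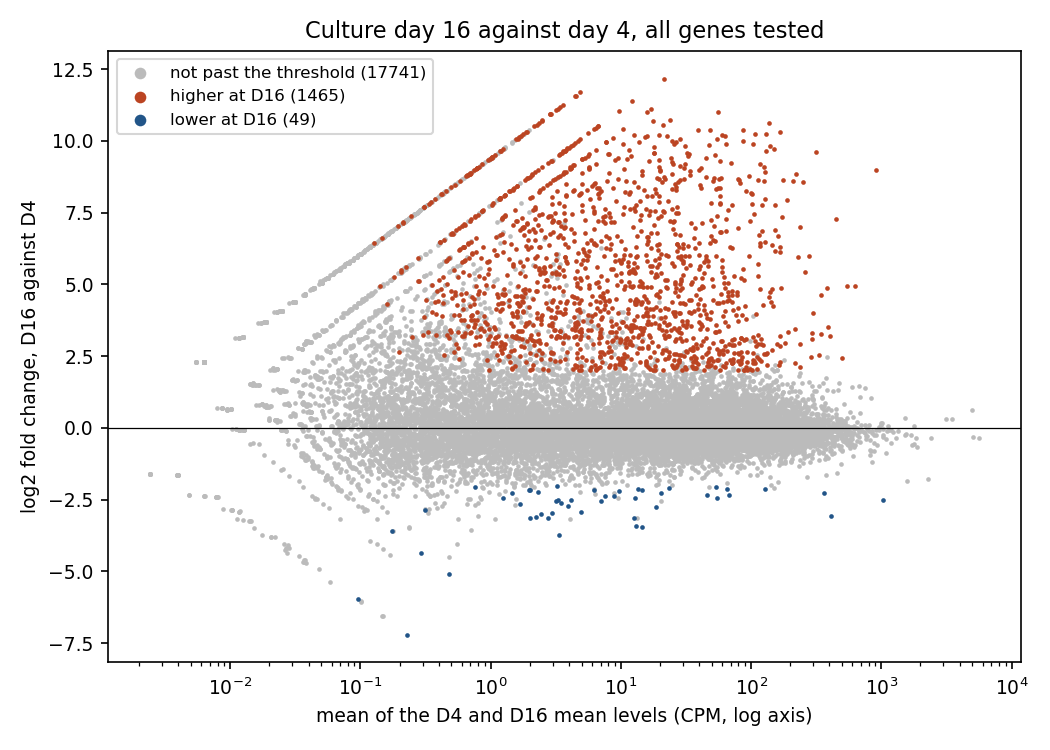
Each point is 1 of the 19255 genes tested, with its mean level on a log axis in CPM (the count scaled to the total of its library) and its log2 fold change of D16 against D4 on the vertical axis. The 1465 genes past the study's threshold on the upper side reach far larger fold changes than the 49 on the lower side.

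The increase was not equally large in both D16 libraries. The 1465 higher genes took 0.538% to 0.578% of all counts at D4, 10.9% in D16 replicate 1 and 4.74% in D16 replicate 2. Replicate 1 was the higher of the pair for 1390 of them (94.9%), by a median of 2.55-fold, against 48.3% of all genes tested. Without D16 replicate 1, 820 genes stayed past the threshold on the upper side, of which 818 were among the 1465, and 7 on the lower side. At an adjusted p under 0.05, 1641 rose and 206 fell without it. The count past the threshold on the lower side was also 28 without D16 replicate 2 and 32 without D4 replicate 2, and 627 genes fell without D4 replicate 2. For this reason the counts that rose and fell in each gene group are given below with all libraries and without D16 replicate 1. D16 replicate 2 alone is then assumed to vary like the other groups. The median log2 fold changes of the lists depend on these libraries too: 29 of 50 moved beyond the spread between replicates without D16 replicate 1 and 26 without D16 replicate 2.

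The genes with the largest rises were almost silent at D4. Gykl1, which encodes a glycerol kinase-like protein, was at 0.0697, 0.12 and 0 CPM at D4 and at 193 and 31.8 CPM at D16. Adam3, a sperm surface protein needed for migration and egg binding, was at 0.325, 0.216 and 0.145 CPM at D4 and at 379 and 144 CPM at D16. Pgk2 (chr17:40207018-40208609, GRCm38.p6), the phosphoglycerate kinase that meiotic and later germ cells use in place of the X-linked form, went from 0.139, 0.216 and 0.174 CPM to 304 and 43.8 CPM. In all of these both D16 libraries stood far above every D4 library, and D16 replicate 1 was the higher. Their log2 fold changes were 11.01 ± 1.00 (SE) for Gykl1, 10.25 ± 0.72 for Adam3 and 9.99 ± 0.87 for Pgk2, with adjusted p-values of 1.55e-07, 1.14e-08 and 9.34e-08. The others of the 15 largest rises, Cmtm2b, Slco6c1, Pabpc2, Plaat5, Tmbim7, Tcp10c, Prdx6b, Slc9c1, Rbakdn, Pom121l12, Stpg4 and Ms4a20, had log2 fold changes between 9.84 and 10.36. Slc9c1 encodes the sperm sodium and proton exchanger, Slco6c1 a transporter of the CatSper channel complex, and Pabpc2 a poly(A)-binding protein of germ cells.

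Promoters of the higher genes were searched for the short sequences bound by factors that act in meiotic and haploid germ cells. These factors are MYBL1 (A-MYB), the regulator of pachytene transcription, RFX2, which acts on ciliary and flagellar genes, and CREM, which acts in spermatids. RefSeq promoters on GRCm38.p6 of 300 bases, from 250 before to 50 after each start, were found for 1146 of the 1465 genes. On either strand, AACNGNC, a core that MYB proteins bind, was in 46.4% of the promoters of the higher genes, against 33.3% of the promoters of all genes tested, 32.8% of all promoters in the table and 14% of the 50 promoters of the lower genes. GTTGCCAT, the core of the X-box that RFX proteins bind, was in 4.51%, against 1.40% of all genes tested and 1.35% of all promoters. It was in 0 of the 50 promoters of the lower genes. In the 1036 promoters of genes that fell, AACNGNC was in 28.6% and GTTGCCAT in 0.676%. The full cyclic AMP response element TGACGTCA was in 1.82% for the higher genes, against 2.58% for all genes tested and 1.79% of all promoters. Its shorter core TGACG, which the full element contains, was in 20.9%, against 26.4% and 20.8%. For the lower genes TGACGTCA was in 1 and TGACG in 8 of the 50 promoters. For genes that fell they were in 9 and 207 of the 1036 promoters. The median GC content of the promoters was 53.3% for the higher genes and 58.3% for all genes tested, and its part in these shares was not tested. A match is a description of the letters and not evidence of binding. To show what such promoters look like, the 120 bases before an annotated start are given below for 3 genes that rose. The bases run 5′ to 3′ on the strand of the gene, with matches to AACNGNC (either strand) or GTTGCCAT in capitals. These genes were chosen after the matches were seen, among windows that held no annotated exon.
Ccna1, chr3:55055056-55055175, minus strand: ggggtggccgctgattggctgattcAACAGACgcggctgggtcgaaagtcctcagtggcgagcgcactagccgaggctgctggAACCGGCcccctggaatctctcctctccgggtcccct
Papolb, chr5:142530077-142530196, minus strand: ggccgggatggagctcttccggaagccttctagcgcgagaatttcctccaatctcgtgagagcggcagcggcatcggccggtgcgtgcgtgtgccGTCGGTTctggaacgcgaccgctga
Tekt1, chr11:72361883-72362002, minus strand: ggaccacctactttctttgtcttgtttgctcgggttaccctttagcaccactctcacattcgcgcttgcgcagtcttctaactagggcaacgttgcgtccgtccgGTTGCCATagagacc

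Ccna1, the cyclin A1 of spermatocytes, whose window holds matches at 95 and 37 bases before the start, was at 1.49, 1.85 and 1.72 CPM at D4 and at 82.7 and 30.5 CPM at D16. Papolb, a poly(A) polymerase of germ cells with 1 match at 25 bases before the start, went from 2.95, 2.81 and 2.55 CPM to 355 and 108 CPM. Tekt1, a tektin inside the doublet microtubules of the flagellum with its X-box match at 15 bases before the start shown, went from 0.998, 1.22 and 1.17 CPM to 143 and 57.8 CPM. Another promoter of Tekt1 (chr11:72361247-72361546) held no match to GTTGCCAT, but held AACNGNC at 99 bases before its start. None of the 3 genes overlapped between D4 and D16, and D16 replicate 1 was higher for each. The log2 fold changes were 5.13 ± 0.47, 6.45 ± 0.54 and 6.53 ± 0.49 (adjusted p of 1.82e-07, 5.66e-08 and 2.16e-08).

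The factors themselves also changed. Rfx2 was at 8.52, 8.82 and 10.7 CPM at D4 and at 149 and 82.9 CPM at D16, with a log2 fold change of 3.70 ± 0.42 (adjusted p = 2.51e-06). Crem, counted over all its transcripts, went from 12.6, 10.9 and 12.6 CPM to 136 and 42.2 CPM (2.95 ± 0.58, adjusted p = 0.000848). Mybl1 went from 61.0, 37.5 and 37.3 CPM to 103 and 77.5 CPM (1.04, adjusted p = 0.0288). The D16 libraries were above all D4 libraries for each, by far the least for Mybl1. Without D16 replicate 1 the adjusted p was 0.0677 for Crem and 0.340 for Mybl1, and Mybl1 was also above 0.05 without D4 replicate 2 (0.108) or 3 (0.108).

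Few genes of undifferentiated spermatogonia, the pool that holds the stem cells, were called. Of 24 tested, 1 rose and 2 fell, with a median log2 fold change of -0.40. Zbtb16, which maintains stem cells, was at 58.3, 58.2 and 54.6 CPM at D4 and at 29.8 and 51.1 CPM at D16, a log2 fold change of -0.45 ± 0.44 (adjusted p = 0.497). The gene that rose was Id4, an inhibitor of helix-loop-helix factors that marks the most primitive spermatogonia and is also used by spermatocytes. It was at 23.0, 16.9 and 21.3 CPM at D4 and at 77.8 and 67.1 CPM at D16 (1.88 ± 0.22, adjusted p = 3.01e-06). Both D16 libraries were well above D4. Of the 24 log2 fold changes 9, that of Id4 included, were positive and 15 negative. The genes that fell were Taf4b, a TFIID subunit of the germ line, by 0.54 on the log2 scale, and Pou5f1 (OCT4), a pluripotency factor, by 1.01. The call of Taf4b was lost without D16 replicate 1 (adjusted p = 0.437) and without D4 replicate 1 (0.0780) or 2 (0.0926), and the list had 1 riser and 0 fallers without D16 replicate 1.

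Genes of differentiating spermatogonia were lower on balance. Of 14 tested, 5 fell, 1 rose and the median was -0.80. Kit, the receptor that marks the start of differentiation, was at 118, 126 and 119 CPM at D4 and at 51.3 and 67.6 CPM at D16 (-0.98 ± 0.28, adjusted p = 0.0156). Stra8, the retinoic acid target that licenses meiosis, went from 156, 168 and 221 CPM to 59.3 and 83.8 CPM (-1.30 ± 0.26, adjusted p = 0.00112). Both were lower in each D16 library than in any D4 library. The list also holds a gene that rose, Dmrtb1, a regulator of the switch from mitosis to meiosis, from 29.3, 28.3 and 34.4 CPM to 307 and 125 CPM (2.88 ± 0.38, adjusted p = 1.45e-05). Leaving out D16 replicate 1, 1 of the 14 fell and the adjusted p of Kit was 0.237.

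Meiotic genes went both ways. Over all genes tested 18.4% rose and 5.48% fell, and the share of risers among the recombination genes lay near the former. Of 12 genes of meiotic entry 0 rose and 2 fell by edgeR's test: Stra8, and Bhmg1, which encodes its partner MEIOSIN. Bhmg1 was at 68.6, 76.3 and 78.6 CPM at D4 and at 21.9 and 30.2 CPM at D16 (-1.47 ± 0.30, adjusted p = 0.00142, and 0.0520 without D16 replicate 1, when 1 gene of the 12 fell). Prdm9, which marks the sites of recombination at the start of meiosis, also fell, from 36.2, 34.1 and 36.0 CPM to 10.6 and 17.8 CPM (-1.27 ± 0.25, adjusted p = 0.000991, and 0.0546 without that library). Each of these early genes was lower in both D16 libraries than in every D4 library. Spo11, which makes the double-strand breaks, went the other way, from 10.5, 9.35 and 11 CPM to 85.3 and 60.3 CPM (2.88 ± 0.37, adjusted p = 9.79e-06). In all, 5 of 29 recombination genes rose and 4 fell, with a median of 0.20, and without D16 replicate 1 the counts were 3 and 0.

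Of 15 genes of the synaptonemal complex and meiotic axis, the scaffold that joins paired chromosomes, 3 rose and 0 fell, with a median of 0.72. That share of risers lay near the 18.4% of all genes tested. Sycp2, an axis component, was at 232, 184 and 174 CPM at D4 and at 396 and 379 CPM at D16 (1.03 ± 0.31, adjusted p = 0.0223). Sycp1, the transverse filament, was at 195, 156 and 139 CPM at D4 and at 269 and 198 CPM at D16, a log2 fold change of 0.57 ± 0.30 (adjusted p = 0.189). Both D16 libraries were above D4 for both genes, by little for Sycp1 in D16 replicate 2. The call of Sycp2 was lost without D16 replicate 1 (adjusted p = 0.163), D16 replicate 2 (0.0511), D4 replicate 2 (0.0734) or D4 replicate 3 (0.0823). The list had 1 riser without D16 replicate 1 and 5 without D16 replicate 2.

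Genes of pachytene and diplotene spermatocytes rose together. Of 26 tested, 22 rose and 0 fell, 15 of them past the study's threshold, and the median log2 fold change was 3.05. The list's summed level was 479, 459 and 504 CPM at D4 and 10010 and 4298 CPM at D16. Ldhc (chr7:46861263-46878147), the lactate dehydrogenase of germ cells, was at 4.04, 3.19 and 4.10 CPM at D4 and at 2842 and 819 CPM at D16 (8.98 ± 0.64, adjusted p = 1.48e-08). Hspa2, the chaperone that spermatocytes need to leave prophase, went from 83.0, 76.2 and 90.3 CPM to 918 and 537 CPM (3.19 ± 0.32, adjusted p = 5.35e-07). Ybx2, which stores mRNAs for later translation, went from 26.0, 24.9 and 32 CPM to 890.0 and 439 CPM (4.65 ± 0.43, adjusted p = 2.20e-07). For all of these D16 replicate 1 was the higher and replicate 2 was still far above D4. In the absence of D16 replicate 1, 15 of the 26 rose, and of replicate 2, 23.

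The piRNA pathway, which silences transposons and processes pachytene piRNAs, had 13 of 23 genes that rose and 0 that fell, with a median of 1.38. Piwil1 (MIWI), the Argonaute protein of pachytene cells and spermatids, was at 7.38, 7.43 and 8.10 CPM at D4 and at 498 and 411 CPM at D16 (5.95 ± 0.50, adjusted p = 7.16e-08). Tdrd6, a Tudor protein of the chromatoid body, went from 1.05, 0.959 and 0.768 CPM to 441 and 258 CPM (8.62 ± 0.53, adjusted p = 5.00e-09). Piwil2 (MILI), which spermatogonia already carry, was at 211, 210 and 191 CPM at D4 and at 346 and 310 CPM at D16 (0.73 ± 0.28, adjusted p = 0.0681). All 3 were higher in both D16 libraries than in every D4 library, with the groups nearest to each other for Piwil2. Ddx4 (VASA), present in germ cells of all these stages, rose from 196, 183 and 176 CPM to 636 and 429 CPM (1.58 ± 0.27, adjusted p = 0.000198). Among 15 genes used by germ cells in general, 8 rose, among them Ddx4, Mael and Piwil1, and 1, Tex11, fell, by 0.74 on the log2 scale. Dazl, another of these, was at 710, 510 and 582 CPM at D4 and at 595 and 471 CPM at D16, with overlapping groups (-0.12 ± 0.37, adjusted p = 0.849). Mael was not called without D16 replicate 1 (adjusted p = 0.110), and Tex11 was not called without either D16 library or without D4 replicate 1 or 2 (0.0579 to 0.25). With D16 replicate 2 alone at that stage, 8 piRNA pathway genes rose, and 5 of the genes used by germ cells in general rose and 0 fell.

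**Figure D2:**
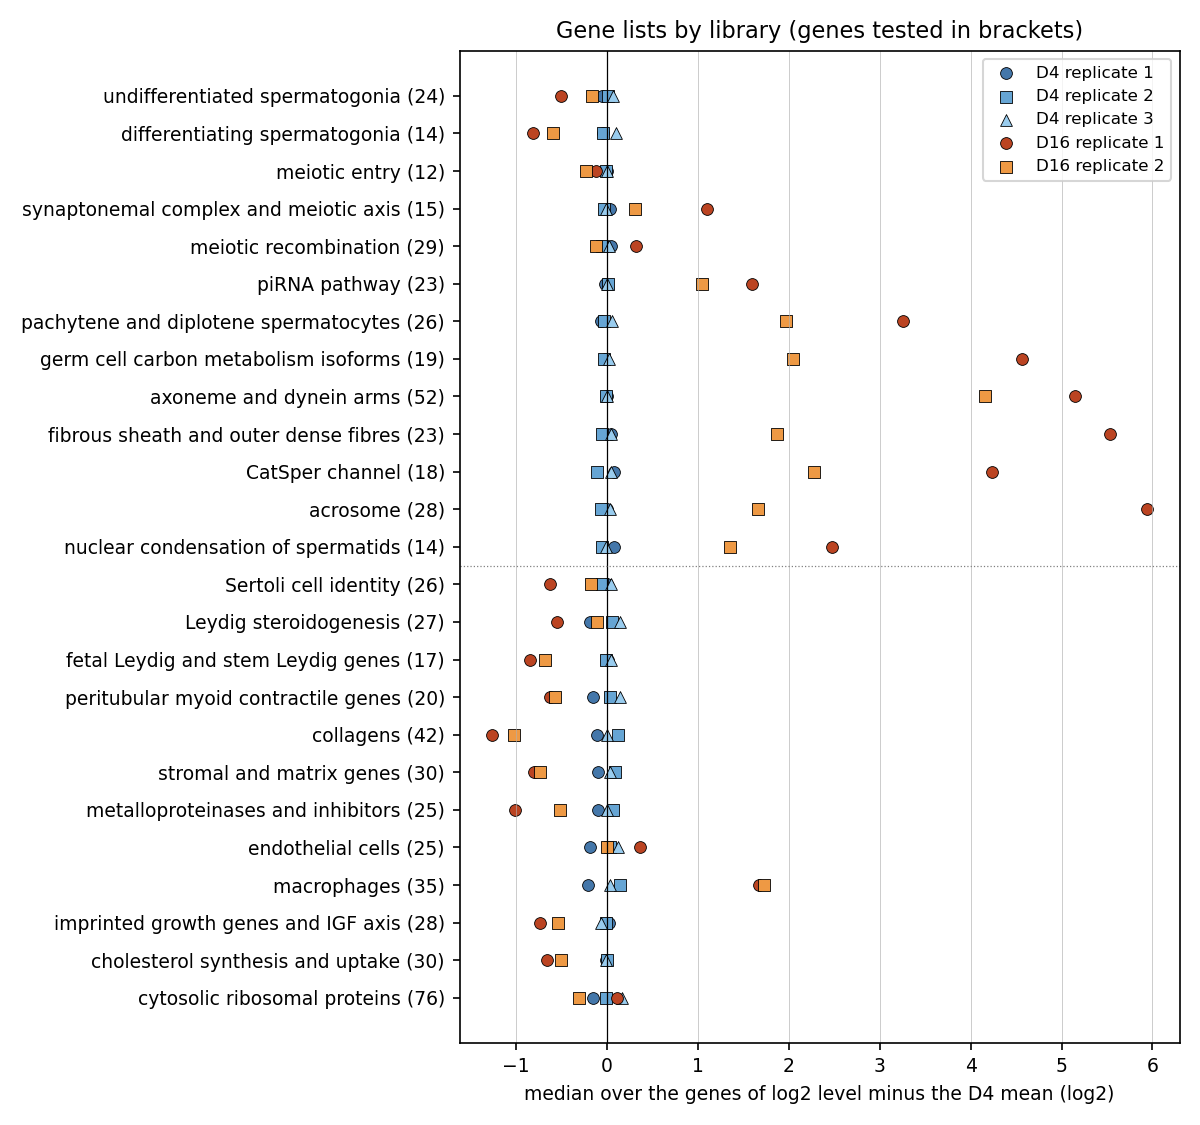
For each gene list, with the number of genes tested in brackets, the points give for each library the median over its genes of the log2 level minus the mean log2 level of the 3 D4 libraries. Germ cell lists stand above the dotted line and the other lists under it. The lists of spermatocyte and spermatid genes reach the highest values, with D16 replicate 1 to the right of replicate 2, while the collagens lie to the left of 0 and the macrophage genes to the right of it in both D16 libraries.

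Lists of genes used in round spermatids rose at D16 and most strongly in replicate 1. Whether spermatids or spermatocytes carried these RNAs cannot be told from whole tissue. Of 22 regulators tested of 23 listed, 16 rose and 1 fell, with a median of 3.30. Of 28 acrosome genes, 24 rose and 0 fell, with a median of 7.11, or 5.79 when the 10 genes at the floor in D4 are put at their bound. Relative to the D4 mean, the median log2 level of the acrosome genes was 5.94 in D16 replicate 1 and 1.66 in replicate 2. Spink2, an inhibitor that keeps acrosin from acting too soon, was at 0.650, 0.480 and 0.884 CPM at D4 and at 217 and 66.3 CPM at D16 (7.76 ± 0.63, adjusted p = 4.29e-08). Acr, acrosin itself, went from 0.0929, 0.0480 and 0.159 CPM to 93.4 and 29.8 CPM (9.19 ± 0.66, adjusted p = 1.48e-08). Of 22 genes of sperm and egg fusion 16 rose and 0 fell, with a median of 2.67, and the same per-library medians were 3.22 and 0.64. Adam2, the partner of several other ADAM proteins on sperm, went from 1.23, 1.61 and 1.59 CPM to 438 and 173 CPM (7.75 ± 0.57, adjusted p = 1.60e-08). Of these lists, 6 regulators, 13 acrosome genes and 6 fusion genes rose without D16 replicate 1. The regulator that fell was Taf7l, a germ cell TFIID subunit that spermatogonia also carry, from 262, 233 and 255 CPM to 123 and 150 CPM (-0.83, adjusted p = 0.00808, and 0.158 without that library).

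The parts of the flagellum also rose. Of 52 axoneme and dynein arm genes 46 rose, 44 of them past the study's threshold, and 0 fell. Their median was 4.85, and their summed level was 274, 279 and 282 CPM at D4 and 6922 and 3638 CPM at D16. Rsph1, a radial spoke head protein, was at 24.7, 23.5 and 31.2 CPM at D4 and at 847 and 632 CPM at D16 (4.86 ± 0.36, adjusted p = 1.65e-08). Of the lists of meiotic and haploid genes this was the steadiest, with 42 risers without D16 replicate 1 and 46 without replicate 2. Of 23 genes of the fibrous sheath and outer dense fibres, 22 rose, with a median of 5.56 (5.28 with 2 genes at their bound). Tcp11, which sperm need to swim forward, went from 2.53, 2.11 and 1.94 CPM to 497 and 186 CPM (7.34 ± 0.53, adjusted p = 1.60e-08). Of 18 CatSper genes, which build the calcium channel of the sperm tail, 17 rose, with a median of 4.77 (4.02 with 3 genes at their bound). Catsperd went from 2.04, 1.94 and 2.32 CPM to 106 and 63.8 CPM (5.39 ± 0.40, adjusted p = 1.65e-08). The sheath and fibre list had 11 risers and the CatSper list 9 without D16 replicate 1.

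Germ cell forms of energy enzymes followed the same course. Of 19 tested of 20 listed, 16 rose and 0 fell, with a median of 3.90, and 10 rose without D16 replicate 1. Besides Ldhc and Pgk2, Gk2, a glycerol kinase, was at 0.511, 0.264 and 0.203 CPM at D4 and at 459 and 96.3 CPM at D16 (9.82 ± 0.79, adjusted p = 3.78e-08). Slc2a3, the glucose transporter of germ cells, went from 39.9, 41.1 and 42.5 CPM to 1407 and 1019 CPM (4.94 ± 0.39, adjusted p = 3.29e-08). Tpi1, a glycolytic enzyme of all cells, was at 161, 194 and 197 CPM at D4 and at 227 and 143 CPM at D16, with overlapping groups (0.06 ± 0.25, adjusted p = 0.891).

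RNAs of elongating spermatids, which exchange histones for transition proteins and then protamines, were low for the protamines and differed between the D16 libraries for others. Of 14 genes of nuclear condensation, 8 rose and 0 fell, with a median of 3.50. Tnp1, a transition protein, was at 0.232, 0.240 and 0.203 CPM at D4 and at 5.46 and 0.787 CPM at D16 (3.85 ± 1.12, adjusted p = 0.0170). Prm1 was at 0.186, 0.12 and 0.0724 CPM at D4 and at 1.26 and 1.09 CPM at D16 (3.31 ± 1.18, adjusted p = 0.0495). Prm2 was at 0.232, 0.0719 and 0.0145 CPM at D4 and at 1.56 and 1.86 CPM at D16 (4.16 ± 1.42, adjusted p = 0.0396). The D16 libraries were above D4 for all 3 genes, and D16 replicate 1 was much the higher for Tnp1. The calls of Prm1 and Prm2 were lost when any 1 of the 5 libraries was left out (adjusted p from 0.0503 to 0.213), and that of Tnp1 without D16 replicate 1 (0.596) or any D4 library (0.0521 to 0.0642). Hils1, a histone H1-like protein of spermatids, was at 22.9 CPM in D16 replicate 1 and at 0.372 CPM in replicate 2, with 0.0697, 0 and 0.0580 CPM at D4 (7.99 ± 1.39, adjusted p = 0.000286, and 0.252 without D16 replicate 1). Of 12 testis histone variants, 5 rose and 0 fell. Only 1 gene of nuclear condensation and 1 histone variant rose without D16 replicate 1.

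**Figure D3:**
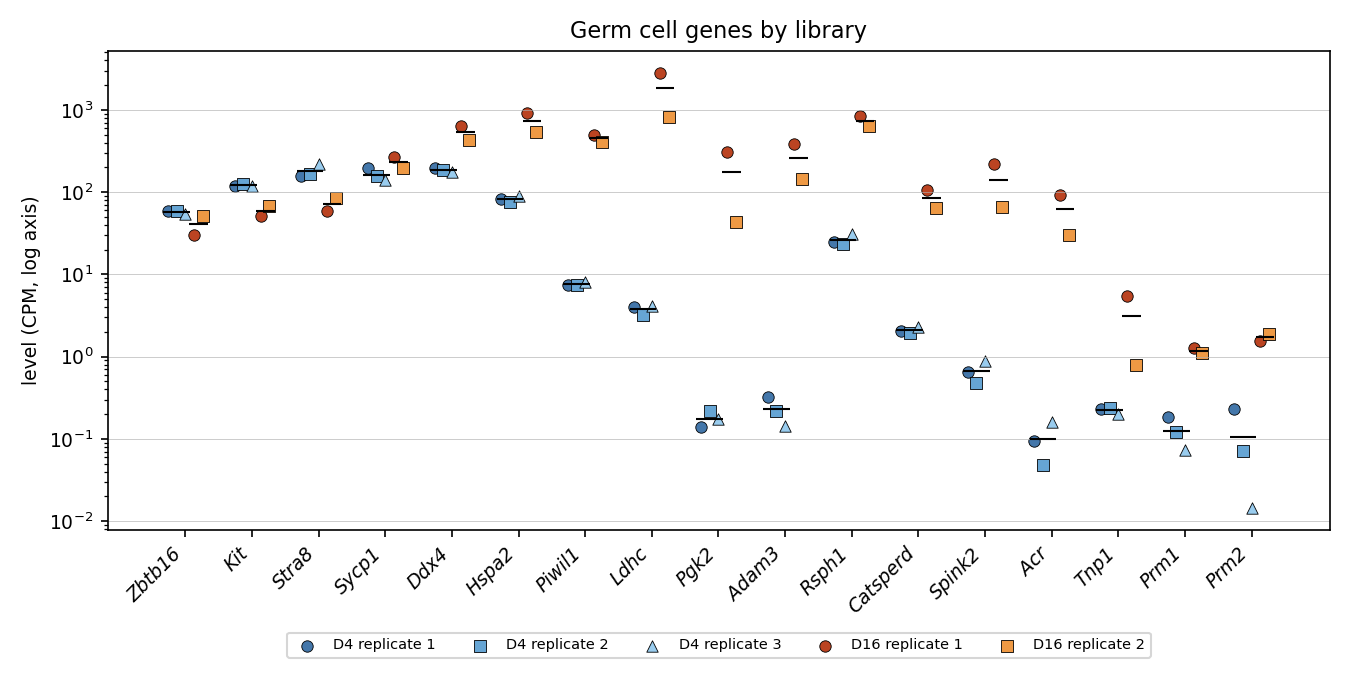
Levels in CPM on a log axis are shown for 17 germ cell genes in each of the 3 D4 and 2 D16 libraries, with black bars at the group means. Kit and Stra8 were lower in both D16 libraries, while the genes from Ddx4 to the right were higher in both, with Ldhc at 2842 and 819 CPM and Prm1 at 1.26 and 1.09 CPM.

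Most Sertoli cell identity genes were not called, though 22 of the 26 log2 fold changes were negative. By edgeR's test 0 rose and 2 fell, with a median of -0.36. Their summed level was 13780, 13290 and 14890 CPM at D4 and 9618 and 12530 CPM at D16, lower in both D16 libraries and the lowest in replicate 1. Sox9, the factor that specifies Sertoli cells, was at 227, 178 and 199 CPM at D4 and at 108 and 170 CPM at D16 (-0.49 ± 0.28, adjusted p = 0.231). Clu, an abundant secreted chaperone, was at 6256, 6103 and 6801 CPM at D4 and at 4145 and 5639 CPM at D16 (-0.34 ± 0.25, adjusted p = 0.369). Both lay lower in both D16 libraries, by amounts within the spread. Amh, the hormone of immature Sertoli cells that is normally turned off as they mature, did fall, from 211, 235 and 237 CPM to 53.1 and 57.6 CPM (-1.99 ± 0.23, adjusted p = 3.41e-06). Its 2 D16 values were close to each other, and the difference from D4 was 3.97-fold. Wnt6, a secreted signal, was the other gene that fell, by 1.09 on the log2 scale (adjusted p = 6.16e-05). Of 27 genes of Sertoli maturation and transport 5 rose and 0 fell, with a median of -0.07. Tsx went from 22.3, 15.5 and 21.7 CPM to 51.4 and 43.4 CPM (1.31 ± 0.34, adjusted p = 0.00798, and 0.102 without D16 replicate 1). Cyp19a1, the aromatase that makes oestrogens, was at the floor in D4 and at 1.96 and 1.81 CPM at D16, and pachytene germ cells are also known to carry it. Among 24 genes of the blood-testis barrier 2 rose and 1 fell. Nectin3, which spermatids also carry where they attach to Sertoli cells, rose from 41.7, 44.3 and 38.4 CPM to 270 and 127 CPM (2.32 ± 0.37, adjusted p = 0.000117). With D16 replicate 1 left out, the identity list had 0 risers and 2 fallers, the maturation list 2 and 0, and the barrier list 2 and 0.

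Few steroidogenic genes of Leydig cells were called. Of 27 tested, 2 rose and 4 fell, with a median of -0.28, against 18.4% and 5.48% of all genes tested. Hsd3b1, the hydroxysteroid dehydrogenase of the steroid pathway, was at 168, 284 and 316 CPM at D4 and at 113 and 107 CPM at D16 (-1.16 ± 0.29, adjusted p = 0.00585, and 0.0567 without D16 replicate 1). Hsd3b6, the form of adult Leydig cells, went the other way, from 3.41, 5.88 and 5.36 CPM to 10.2 and 27.9 CPM (2.01 ± 0.50, adjusted p = 0.00559, and 0.141 without D16 replicate 2). Both D16 libraries were above D4 for Hsd3b6, and replicate 2 was the higher here. Cyp17a1, which leads to androgens, was at 10.8, 14.3 and 18.0 CPM at D4 and at 15 and 12.9 CPM at D16 (0.01 ± 0.31, adjusted p = 0.990). Cyp11a1, which starts steroid synthesis from cholesterol, was at 67.8, 132 and 139 CPM at D4 and at 47.1 and 61.1 CPM at D16 (-1.01 ± 0.38, adjusted p = 0.0669, and 0.0271 without D4 replicate 1). Of 17 genes of fetal and stem Leydig cells, 0 rose and 5 fell, with a median of -0.72. Inhba, a subunit of activin, fell from 48.1, 34.2 and 31.5 CPM to 7.49 and 9.81 CPM (-2.09 ± 0.41, adjusted p = 0.000854). On D16 replicate 2 alone, 1 steroidogenic gene rose and 0 fell, and 3 fetal and stem Leydig genes fell.

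The collagens and other matrix genes made up the clearest fall. Of 42 collagen genes 20 fell and 1 rose, 6 of the 20 past the study's threshold, with a median of -1.09. Their summed level was 12730, 16150 and 15030 CPM at D4 and 4542 and 5108 CPM at D16. Col1a1 (chr11:94936224-94953042), a chain of the main fibrillar collagen, was at 1485, 1962 and 1880 CPM at D4 and at 290 and 311 CPM at D16 (-2.51 ± 0.40, adjusted p = 0.000107). Col3a1, another fibrillar collagen, went from 3140, 3991 and 3621 CPM to 932 and 1062 CPM (-1.80 ± 0.31, adjusted p = 0.000258). Col26a1 had the largest fall of the genes named by rule, from 21.3, 29.3 and 29.7 CPM to 2.61 and 2.05 CPM (-3.46 ± 0.43, adjusted p = 6.73e-06). In each, both D16 libraries were below every D4 library and near each other. Of 30 stromal and matrix genes 13 fell and 0 rose, with a median of -0.63. Fn1, fibronectin, fell from 408, 468 and 374 CPM to 104 and 142 CPM (-1.72 ± 0.40, adjusted p = 0.00334, and 0.0832 without D16 replicate 1), whereas Dcn, the proteoglycan decorin, was at 713, 955 and 899 CPM at D4 and at 861 and 671 CPM at D16 (-0.10 ± 0.45, adjusted p = 0.902). Of 25 metalloproteinases and their inhibitors 11 fell and 1 rose, with a median of -0.74. Mmp2, a gelatinase, fell from 152, 180 and 177 CPM to 44.2 and 60.7 CPM (-1.64 ± 0.35, adjusted p = 0.00165, and 0.0542 without D16 replicate 1). Without D16 replicate 1 the numbers that fell were 11 collagens, 4 stromal genes and 2 metalloproteinase genes.

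Of 20 contractile genes of peritubular myoid cells 3 fell and 0 rose, with a median of -0.59, and none was called without D16 replicate 1 by edgeR's test. Acta2, smooth muscle actin, was at 233, 323 and 394 CPM at D4 and at 188 and 166 CPM at D16 (-0.79 ± 0.26, adjusted p = 0.0364). That call was lost without either D16 library or without D4 replicate 2 or 3, with adjusted p-values from 0.0819 to 0.166. Myl9, a myosin light chain of the same cells, was at 178, 224 and 271 CPM at D4 and at 178 and 168 CPM at D16 (-0.33 ± 0.21, adjusted p = 0.282).

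Some genes of fetal growth fell. Of 28 imprinted genes and genes of the insulin-like growth factor axis 7 fell and 0 rose, 22 log2 fold changes were negative and 6 positive, with a median of -0.58, and 3 fell without D16 replicate 1. H19, an imprinted noncoding RNA of growing tissues, was at 635, 719 and 837 CPM at D4 and at 68.6 and 101 CPM at D16 (-3.06 ± 0.46, adjusted p = 5.70e-05). Dlk1, an imprinted inhibitor of differentiation that stem Leydig cells carry, went from 20.3, 24.6 and 26.6 CPM to 2.14 and 2.12 CPM (-3.43 ± 0.38, adjusted p = 1.90e-06). Outside the list, Gpc3, a proteoglycan that restrains growth, went from 65.5, 79.4 and 85.6 CPM to 15.4 and 13.6 CPM (-2.35 ± 0.26, adjusted p = 1.57e-06). All were lower in both D16 libraries than in every D4 library. Others in the list of the 15 largest falls were Mybpc3, Zim1, Mbp, Stra6, Lvrn, Rasgrp1, Fam107a, Sel1l3, Col5a1 and Vcan, with log2 fold changes between -3.14 and -2.27. Stra6, the receptor that takes up retinol from its carrier, fell from 86.8, 96.2 and 97.5 CPM to 19 and 13.8 CPM (-2.46 ± 0.30, adjusted p = 6.36e-06). In the wider list of retinoid metabolism and response 2 of 26 rose and 6 fell, with a median of -0.29, and without D16 replicate 1, 0 rose and 2 fell. Rdh11, a retinol dehydrogenase, was 1 of the risers, from 43.7, 43.5 and 35.5 CPM to 208 and 101 CPM (1.97 ± 0.38, adjusted p = 0.000758, and 0.0570 without D16 replicate 1).

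Macrophage genes rose in both D16 libraries to a like degree. Of 35 tested, 25 rose and 0 fell, 11 of them past the study's threshold, with a median of 1.78. Their summed level was 242, 330 and 288 CPM at D4 and 774 and 883 CPM at D16. Csf1r, the receptor that macrophages need to survive, was at 3.53, 4.46 and 4.09 CPM at D4 and at 23.7 and 32.8 CPM at D16 (2.86 ± 0.29, adjusted p = 6.29e-07). Adgre1 (F4/80), a macrophage surface protein, went from 1.63, 2.21 and 1.96 CPM to 15.3 and 15.1 CPM (3.03, adjusted p = 2.14e-07). Cx3cr1, the fractalkine receptor of tissue macrophages, went from 0.882, 0.671 and 0.840 CPM to 12.2 and 13.9 CPM (4.07 ± 0.24, adjusted p = 4.50e-09). The D16 libraries were close to each other for all of these and several times above D4, and D16 replicate 1 was above replicate 2 for 19 of the 35. C1qa, C1qb and C1qc, the chains of the complement starter C1q, had log2 fold changes of 2.98, 3.18 and 3.03, and Lyz2, lysozyme, of 2.95 ± 0.46. Mrc1, the mannose receptor, rose by less, from 18.5, 18.0 and 16.1 CPM to 31.7 and 47.8 CPM (1.22 ± 0.23, adjusted p = 0.000557). Spp1 (osteopontin), which other cells also make, was at 81.3, 113 and 95.7 CPM at D4 and at 46.2 and 77.0 CPM at D16 (-0.60 ± 0.77, adjusted p = 0.616). The number that rose was 18 of 35 without D16 replicate 1 and 21 without replicate 2.

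Of 25 endothelial genes 3 rose and 2 fell, with a median of 0.17. These counts stand beside 18.4% of all genes tested that rose and 5.48% that fell, and the share of risers lay below the former. Cdh5, the cadherin of vessel junctions, was at 81.8, 99.2 and 105 CPM at D4 and at 134 and 96.9 CPM at D16, with overlapping groups (0.33 ± 0.25, adjusted p = 0.379). Vwf, a clotting protein stored in endothelium, rose from 3.95, 5.78 and 6.45 CPM to 15.9 and 22 CPM (1.86 ± 0.48, adjusted p = 0.00819). Kdr, the main receptor for vascular endothelial growth factor, was at 87.6, 80.5 and 69.4 CPM at D4 and at 38.2 and 36.6 CPM at D16 (-1.03 ± 0.31, adjusted p = 0.0184). Thus Cdh5, Vwf and Kdr did not share a direction. The call of Kdr was lost without either D16 library or without D4 replicate 1 (0.0555 to 0.126). The endothelial list had 1 riser and 0 fallers without D16 replicate 1.

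**Figure D4:**
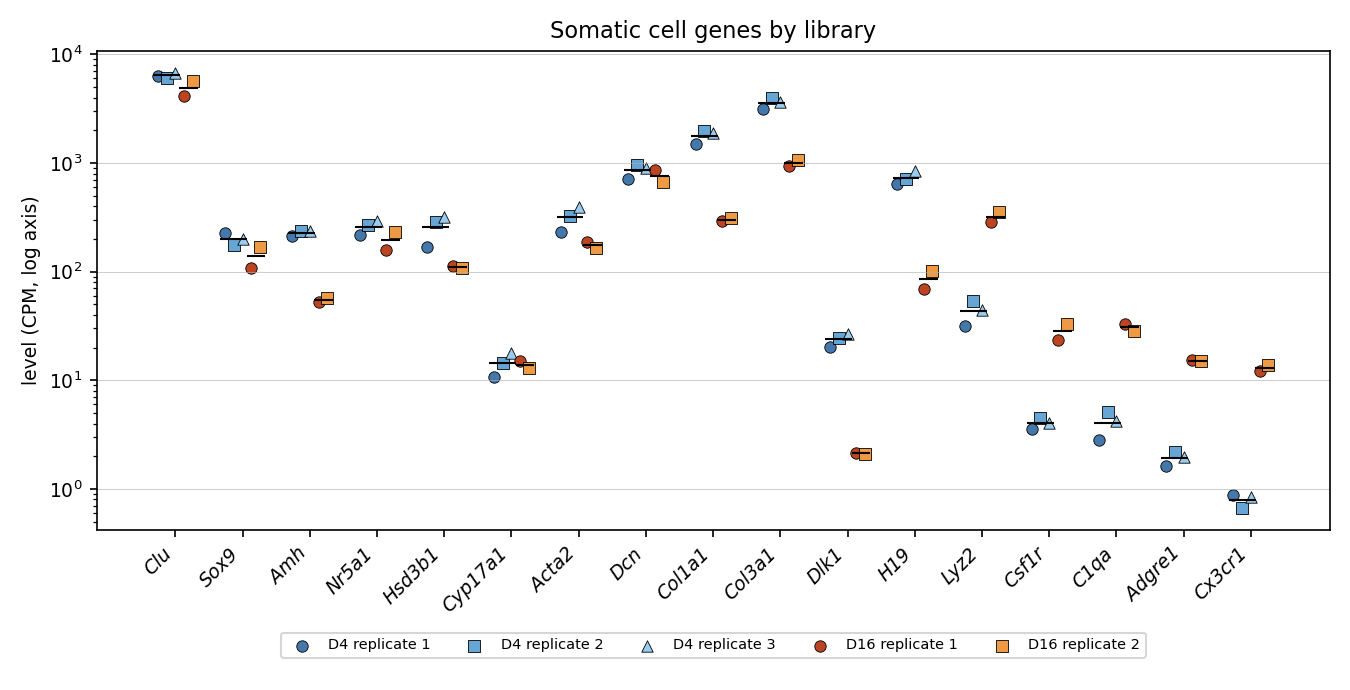
Levels in CPM on a log axis are shown for 17 genes of somatic cells in each of the 3 D4 and 2 D16 libraries, with black bars at the group means. Amh, the collagens, Dlk1 and H19 were lower in both D16 libraries, Lyz2, Csf1r, C1qa, Adgre1 and Cx3cr1 were higher in both, and the groups overlapped for Cyp17a1, Dcn and Nr5a1.

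The counts of inflammatory programmes stand beside 18.4% of all genes tested that rose and 5.48% that fell. The chemokine ligands lay near these shares, and differences between the programmes were not tested. Of 43 interferon response genes 2 rose and 0 fell, with a median of -0.17. Of 27 cytokines 3 rose and 0 fell (median 0.03), and of 27 chemokine ligands 5 rose and 2 fell (0.36). Cx3cl1, the ligand of Cx3cr1, was 1 of those that fell, from 22.1, 26.5 and 25.3 CPM to 8.95 and 12.3 CPM (-1.16 ± 0.27, adjusted p = 0.00380, and 0.110 without D16 replicate 1), opposite to its receptor. Of 26 complement genes 7 rose and 3 fell (median -0.04), and the 3 C1q chains were among the risers. Of 21 acute phase genes and serpins 2 rose and 6 fell (-0.62), and of 20 NF-kB targets 0 rose and 3 fell (-0.35). Without D16 replicate 1, the numbers that rose and fell were 1 and 0 of the interferon genes, 0 and 0 of the cytokines, 2 and 0 of the chemokines, 5 and 1 of the complement genes, and 0 and 0 of the acute phase genes and of the NF-kB targets.

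Among programmes of metabolism, stress and growth, cholesterol synthesis and uptake had the lowest median: of 30 genes 7 fell and 0 rose, 28 of the log2 fold changes were negative and the median was -0.61. Of 28 hypoxia targets 3 rose and 5 fell (-0.44), of 28 NRF2 targets 1 rose and 3 fell (-0.21), of 26 p53 targets 2 rose and 1 fell (-0.20), of 13 senescence genes 1 rose and 1 fell (-0.12), and of 36 mitotic genes 3 rose and 5 fell (-0.13). Over all genes tested 18.4% rose and 5.48% fell. The share of risers lay below the former in each of these lists, and the share of p53 and senescence genes that fell lay near the latter. Vegfa, the vascular growth factor and a hypoxia target, was at 333, 315 and 257 CPM at D4 and at 135 and 191 CPM at D16 (-0.84 ± 0.28, adjusted p = 0.0368). That call was lost without D16 replicate 1 (0.420) and without D4 replicate 1 (0.0965) or 2 (0.0864). Ldha, also a hypoxia target and abundant in germ cells too, rose from 198, 241 and 241 CPM to 743 and 342 CPM (1.32 ± 0.40, adjusted p = 0.0226), and that call was lost without any 1 of D16 replicate 1 and the 3 D4 libraries (0.0538 to 0.609). None of 76 ribosomal protein genes was called by edgeR's test (median -0.09), and 0 of 7 mitochondrial mRNAs. Without D16 replicate 1, the numbers that rose and fell were 0 and 2 for cholesterol, 1 and 2 for hypoxia, 1 and 1 for NRF2 and for mitosis, and 0 and 0 for p53 and senescence.

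Markers of cells that should be rare in these explants were checked. Of 16 genes of other leukocytes tested of 25 listed, 5 rose and 3 fell. Ptprc (CD45), carried by all leukocytes, rose from 0.882, 0.935 and 0.768 CPM to 4.50 and 5.75 CPM (2.62 ± 0.27, adjusted p = 6.48e-07), and Cd3e, a T cell receptor chain, was at 0.604, 0.576 and 0.493 CPM at D4 and at or below the floor at D16. Their summed level, to which Kit contributes most, was 123 to 133 CPM at D4 and 65.5 to 79.5 CPM at D16. Of 10 erythroid genes 1 rose (Klf1) and 0 fell, and their summed level was 366 to 447 CPM at D4 and 353 and 406 CPM at D16. Of 12 genes of epididymis and rete epithelium 2 rose and 3 fell, and their summed level was 497 to 769 CPM at D4 and 475 and 611 CPM at D16. Of 12 adipocyte genes 1 rose (Pnpla2) and 1 fell (Cidea), and their summed level was 182 to 230 CPM at D4 and 205 and 236 CPM at D16. Of 22 immediate early genes, which respond to handling of tissue, 1 rose and 3 fell, with a median of -0.40, and their summed level was 703 to 739 CPM at D4 and 502 and 680 CPM at D16. With D16 replicate 1 left out, the numbers that rose and fell were 2 and 1 for other leukocytes, 1 and 1 for epididymis and rete, and 0 and 0 for the erythroid, adipocyte and immediate early lists. The part of these cells and of handling in the results above was not tested. Of the 17 genes the study itself names for testis cells, 4 rose and 5 fell, with a median of -0.46, and 1 rose and 3 fell without D16 replicate 1.

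The same interval was compared in the animal. From 10.5 to 22.5 dpp 2917 genes passed the study's threshold on the upper side and 620 on the lower side. Of the 1465 genes higher at D16, 1398 (95.4%, or 47.9% of the 2917) were also higher at 22.5 dpp, against 15.2% of all genes. Of the 49 lower genes, 30 (61.2%, or 4.84% of the 620) were also lower at 22.5 dpp, against 3.22% of all genes. At an adjusted p under 0.05, 33.6% of all genes tested rose in vivo and 27.9% fell. By that call 24 genes rose in culture and fell in vivo, and 26 did the reverse. The level that the 1465 genes had reached was below that at 22.5 dpp for 1161 of them (79.3%) in D16 replicate 1, with a median ratio of 0.708, and for 1422 (97.1%) in replicate 2, with a median ratio of 0.261. The share of all genes tested that lay below 22.5 dpp is not given here, so these counts have no background beside them. The 22.5 dpp libraries also differed: replicate 2 had a rho of 0.9595 with D16 replicate 2, against 0.9074 and 0.9054 for replicates 1 and 3.

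The difference between the culture step and the step in vivo was tested as an interaction. By edgeR's test at an adjusted p under 0.05 the change was larger, that is more positive, in culture for 1012 genes (5.26%) and smaller for 839 (4.36%). These counts depended on single libraries and on the scaling: 54.7% of the differences were larger in culture here, 46.3% with DESeq2's size factors and 73.2% with library size only. Larger and smaller steps numbered 336 and 199 without D16 replicate 2 and 1011 and 1315 without D16 replicate 1. Leaving out a D4 library (replicate 1, 2 or 3) gave 524 to 594 larger and 466 to 519 smaller steps, and leaving out a 10.5 dpp library gave 537 to 660 and 394 to 522. At 22.5 dpp the counts were 413 and 361 without replicate 1, 1620 and 1292 without replicate 2, and 468 and 404 without replicate 3.

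With all libraries, the differences in the lists of recombination, spermatocyte and flagellar genes lay on the smaller side. The list counts of larger and smaller steps, here and below, were taken with all libraries only. Whether they hold without single libraries or with other scalings was not tested. The axoneme genes had 17 of 52 with a smaller step in culture and 0 with a larger one, and their median log2 fold change was 6.80 in vivo. For Rsph1 the step was 4.86 in culture and 7.69 in vivo, a difference of -2.84 (adjusted p = 0.00130), with means of 12 CPM at 10.5 dpp and 2087 CPM at 22.5 dpp. The recombination genes had 9 of 29 smaller and 0 larger, the CatSper genes 5 of 18 and the pachytene genes 5 of 26 smaller, with 0 larger in both. Hspa2, for example, reached a mean of 1702 CPM at 22.5 dpp (a difference of -1.99, adjusted p = 0.00931). For the acrosome, where the median in vivo was 7.16, 1 of 28 differed. The undifferentiated spermatogonia list fell in vivo in 18 of 24 genes (median -1.74), against 27.9% of all genes tested. Of its genes 6 had a larger step in culture and 1 a smaller one. The differentiating list had 4 larger and 1 smaller of 14.

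In the lists of Sertoli identity, endothelial and macrophage genes the differences lay mostly on the larger side. Of 26 Sertoli identity genes 19 fell in vivo, against 27.9% of all genes tested, with a median of -1.38. In culture 12 had a larger step and 1 a smaller one. Sox9 fell in vivo from a mean of 186 to 37.1 CPM, with a difference between the steps of 1.57 (adjusted p = 0.0148). The endothelial list had 8 of 25 larger and 1 smaller. Cdh5 fell in vivo from 111 to 18.4 CPM (difference 2.64, adjusted p = 0.000226). The macrophage genes rose in vivo too, in 22 of 35, against 33.6% of all genes tested, with a median of 0.90. Of them 9 had a larger step in culture and 1 a smaller one. Csf1r had a log2 fold change of 0.84 in vivo (difference 2.02, adjusted p = 0.00429). Their mean summed level was 355 CPM at 10.5 dpp and 610 CPM at 22.5 dpp, so that D4 was below, and D16 above, the mean of the testis of the corresponding age. Other lists differed in this. The blood-testis barrier genes had 7 larger and 0 smaller steps of 24, and the stromal and matrix genes 6 and 2 of 30. For the fetal and stem Leydig genes the counts were 4 and 0 of 17, and for the imprinted and growth factor genes 9 and 0 of 28. Sertoli maturation and transport had 3 larger and 6 smaller steps of 27, and the steroidogenic genes 0 and 4 of 27. The acute phase genes, which are not a cell type list, had 2 larger and 7 smaller of 21. The collagens fell in both, with a median of -0.98 in vivo, and 0 had a larger and 3 a smaller step in culture. Cyp17a1 was at a mean of 350 CPM at 10.5 dpp and 310 CPM at 22.5 dpp, far above its levels of 10.8 to 18.0 CPM in the explants.

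**Figure D5:**
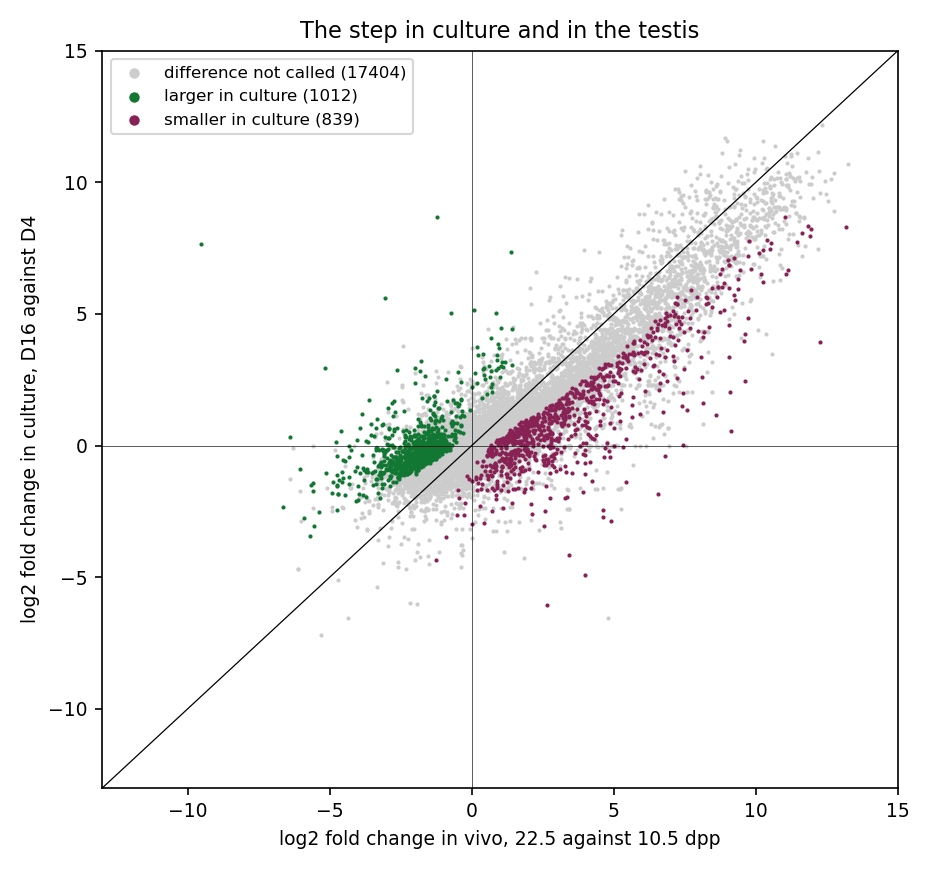
Each point is a gene, with its log2 fold change from 10.5 to 22.5 dpp in vivo on the horizontal axis and from D4 to D16 in culture on the vertical axis, and the diagonal marks equal steps. Green points are the 1012 genes with a larger and purple points the 839 genes with a smaller step in culture.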

How the data were processed

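RNA-seq libraries (TruSeq Stranded mRNA) had been sequenced by the authors and, per the submitters' processing notes and the study's methods, demultiplexed with bcl2fastq 2.17.1.14, aligned to GRCm38 with STAR 2.7.3a and counted with HTSeq 0.12.4. The deposited table holds raw counts per gene, which the authors did not normalise. The strand setting of the counting is not given in the sources used here, so reads of overlapping and antisense genes may be shared, as may those of near-identical copies such as Rps14. Of 27466 genes, 27373 matched the annotation, and the 93 others held 0.02% of the counts.

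Genes were filtered with filterByExpr (19255 kept), scaled by TMM and fitted with edgeR 4.0.16 (quasi-likelihood F test, R 4.3.3) over 21 libraries in 7 stage groups, frozen tissue joined to fresh tissue of its stage. A column identical to another was counted once, and the library labelled 6.5 dpp fresh replicate 1 was left out. P-values were adjusted by the Benjamini-Hochberg method over all genes tested. CPM are counts scaled to the library total and are not corrected for gene length. Replicates differed beyond sampling noise (chi-square per degree of freedom of 25.5 to 66.6 within D4 and 209 within D16). Nothing in the labels says that they came from separate cultures, so p-values measure a spread between samples. That spread was estimated over all 21 libraries and not over D4 and D16 alone. D16, whose pair differed more than the D4 libraries, is thereby taken to vary like the other groups. D4 and D16 share only the replicate numbers 1 and 2, and the deviations of libraries with the same number had correlations of -0.0938 and 0.0111. The fit was tested on simulated data with 200 changed genes. DESeq2 1.42.0, other scalings, filters, sets of libraries and the omission of each library were alternatives.

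The 50 gene lists and the comparison were chosen with earlier results of these data known. Genes were named by rule: the 15 largest changes in each direction past the study's threshold (at least 10 CPM in the higher group, over 3 counts in the lower group, no overlap, no provisional symbol), the 4 most abundant members of each list, the genes named by the study, and the 5 smallest p-values of the difference between steps in each direction. Other genes were named after their values were seen. Gene positions and promoters are from RefSeq, GRCm38.p6. Results for some genes are not reported here.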

Additional observations from a re-analysis of the deposited data

Results flagged for a closer look

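The step from D4 to D16 differed from the step from 10.5 to 22.5 dpp, by its own test, for 1012 genes that changed more positively in culture and for 839 that changed more negatively. The genes given here are those with the smallest p-values among genes of at least 10 CPM in 1 of the 4 groups, and the differences are on the log2 scale. They kept their direction and call under every alternative run for them, except that 6 of the 10 (Pdlim4, Ttc9, C7, P2rx2, C4b and Serpina3n) had an adjusted p from 0.0532 to 0.455 with the library labelled 6.5 dpp fresh replicate 1 kept.

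On the larger side, Rgs17, a regulator of G protein signalling, differed by 8.14: it went from a mean of 0.562 to 4.24 CPM in culture and from 12.2 to 0.269 CPM in vivo. Mest, an imprinted gene of fetal growth, differed by 3.82, at 59.0 and 63.3 CPM in culture and falling from 60.4 to 3.92 CPM in vivo. Cx3cr1 differed by 3.38, rising from 0.798 to 13.1 CPM in culture, with 12.4 and 16.6 CPM in vivo. Dsc2, a desmosomal cadherin, differed by 4.59, at 4.01 and 6.15 CPM in culture and falling from 11.9 to 0.634 CPM in vivo. Pdlim4, a protein of the actin cytoskeleton, differed by 2.65, falling from 63.1 to 30.4 CPM in culture and from 94.0 to 6.11 CPM in vivo.

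On the smaller side, the complement genes C7 and C4b differed by -3.83 and -5.02. C7 was at 84.3 and 80.0 CPM in culture and rose from 3.81 to 42.9 CPM in vivo, and C4b was at 19.2 and 18.3 CPM in culture and rose from 0.815 to 21.1 CPM in vivo. Serpina3n, an acute phase serpin, differed by -4.33, at 157 and 98.9 CPM in culture and rising from 0.867 to 9.46 CPM in vivo. P2rx2, an ATP-gated channel, differed by -3.19, at 41.5 and 32.3 CPM in culture and rising from 6.89 to 41.3 CPM in vivo. For these 4 genes the D4 level was already far above that at 10.5 dpp. Ttc9 differed by -2.57, rising from 14.8 to 46.3 CPM in culture and from 2.13 to 33.2 CPM in vivo.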

How the results depend on the processing

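None of the 168 named genes that rose or fell reversed under the alternatives run for them, but the balance of larger against smaller steps in culture did turn: it was 857 and 993 with DESeq2 size factors, 1278 and 1600 with DESeq2 and 1011 and 1315 without D16 replicate 1. The median of all genes went from 0.03 to -0.014 with library size only. Of the 168 named genes that rose or fell, 168 kept the call with DESeq2, 165 with the D4 and D16 libraries only, 66 with the library labelled 6.5 dpp fresh replicate 1 kept, 110 without D16 replicate 1, 155 without D16 replicate 2 and 147 to 153 without a D4 library. The counts past the study's threshold (1465 higher, 49 lower) became 687 and 17 with the D4 and D16 libraries only, and 3198 and 619 at a log2 fold change of 1 and an adjusted p under 0.05. The lower count became 80 with DESeq2 and 80 at a log2 fold change of 1.5. With the library labelled 6.5 dpp fresh replicate 1 kept, the counts were 13 and 0 past the threshold, 680 and 171 at an adjusted p under 0.05, and 150 larger and 53 smaller steps. The counts of larger and smaller steps (1012 and 839) became 2602 and 2321 with the libraries of the 4 groups only. Library size only gave 1614 larger steps, and DESeq2 gave 1600 smaller ones. Leaving out 1 library at a time gave 820 to 1922 higher and 7 to 38 lower genes past the threshold, 1641 to 3780 and 206 to 1029 at an adjusted p under 0.05, and 336 to 1620 larger and 199 to 1315 smaller steps. The same replicate numbers do not show that D4 and D16 libraries were paired, and with the replicate block 1213 genes were higher and 41 lower past the threshold, 3244 and 963 at an adjusted p under 0.05, and 962 steps larger and 781 smaller. The causes were not tested. The precision is limited by D16, with 2 libraries that differ. For the steps in vivo, the 22.5 dpp libraries differ too. Replicate 2 of 22.5 dpp had a rho of 0.9595 with D16 replicate 2, against 0.9074 and 0.9054 for replicates 1 and 3. Fold changes of genes whose D4 libraries hold few counts, such as the protamines, are uncertain at this depth.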

Other observations

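X-linked and autosomal genes were counted apart after the values were seen, and the difference between them was not tested. Of 800 X-linked genes tested, 20 (2.5%) were past the study's threshold on the upper side, against 1445 of 18407 autosomal genes (7.85%). At an adjusted p under 0.05, 108 X-linked genes rose (13.5%) and 90 fell (11.3%), against 18.6% and 5.23% of autosomal genes. The median log2 fold change was -0.28 for X-linked and 0.04 for autosomal genes in culture, and -0.85 and 0.09 in vivo. Among genes with a mean of at least 1 CPM at D4 it was -0.40 for 563 X-linked and -0.07 for 13467 autosomal genes.

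Long noncoding RNAs were past the threshold on the upper side in 244 of 1748 tested (14%), and on the lower side in 1, which was H19. Protein-coding genes were past it in 1194 of 17231 (6.93%) and 48.

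Genes that went opposite ways in the explants and in the animal, both at an adjusted p under 0.05, included Rgs5, a marker of pericytes, and Marco, a scavenger receptor of macrophages. Rgs5 was at 12.3, 13.7 and 15.7 CPM at D4 and at 64.6 and 34.2 CPM at D16. Marco was at 3.39, 6.00 and 5.22 CPM at D4 and at 9.88 and 30.4 CPM at D16, with an adjusted p of 0.00609, and of 0.175 without D16 replicate 2. Aire, the autoimmune regulator, went the reverse way, from 1.72, 2.35 and 2.30 CPM to 0.427 and 0.459 CPM. These genes were named after their values were seen, out of the 24 that rose in culture and fell in vivo and the 26 that did the reverse. Their levels in the animal are not given here.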
